A study of Mus musculus with 2 samples.

Results

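The genes described here are 34 members of the heat shock response and the unfolded protein response, chosen by gene symbol from a list and read among the 32285 genes of each library. They comprise 6 HSP70 and HSP110 chaperones, 2 HSP90 chaperones, 3 HSP40 cochaperones of the cytosol, 3 genes of the group of small heat shock proteins and Bag3, 3 mitochondrial chaperones, 8 chaperones and folding enzymes of the endoplasmic reticulum (ER), 7 stress sensors and transcription factors, and 2 targets of the integrated stress response. Nuclear RNA of mouse hippocampus was counted by droplet-based sequencing from the 3′ end, and the study concerns the MR1 and MAIT cell axis in an amyloid model. There were 2 libraries, each a pool of 1 male and 1 female mouse at 8 months of age. One library had the genotype 5XFAD, and the other had 5XFAD x MR1 KO, so the 5XFAD transgenes were shared by both and no library without them was analysed here. The transgenes are driven by the Thy1 promoter, which acts mainly in neurons. MR1 is the molecule that shows MAIT cells small metabolites made by microbes.

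Cells answer unfolded protein in separate compartments with separate gene sets. In the cytosol the transcription factor HSF1 is held back by chaperones and, once released, raises the HSP70, HSP90 and HSP40 genes that refold or hold client proteins. In the ER the sensors ATF6, IRE1 (the product of Ern1) and PERK (the product of Eif2ak3) raise ER chaperones through ATF6 and spliced XBP1, and slow translation while ATF4 turns on amino acid and redox genes. Neurons around amyloid plaques have long been examined for both responses because misfolded peptide and swollen neurites burden protein folding.

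The deposited counts held 106861726 UMIs (unique molecular identifiers, 1 per captured RNA molecule) in 25238 barcodes of the 5XFAD library and 85678909 UMIs in 26212 barcodes of the other. After filters, 12035 and 17147 nuclei remained with a median of 3704 and 2518 UMIs. Mr1 itself had 33 and 66 UMIs, a direction opposite to its label. An exchange of the labels, which would turn every ratio given here, was not tested. The deleted part of Mr1 is not given in the sources used here, so reads from the 3′ end need not be lost, and the second library is called the library labelled MR1 knockout throughout. Barcodes over 5% mitochondrial UMIs, which were left out, made up 8.19% of its barcodes and 32.1% of those of the 5XFAD library. The libraries shared 182 barcodes, 61 of them among the kept nuclei. Clusters were named from marker genes as X-like nuclei, and 9 classes, each holding 200 or more nuclei per library, were compared. Medium spiny neurons of the striatum are not part of the labelled tissue, yet 1366 and 191 nuclei carried their markers, which goes against the tissue label for those nuclei. Several clusters came mostly from 1 library, among them a medium spiny-like cluster (1145 and 4 nuclei), a choroid plexus-like cluster (1 and 94), unnamed clusters (33 and 1828, and 640 and 36) and a dentate granule-like cluster (85 and 1351), so values over all nuclei also compare different mixes of cells. With 1 library per group there are no replicates and no test. Each ratio sets the CPM (the UMIs of a gene per 1000000 UMIs of the same nuclei) in the MR1 knockout-labelled nuclei over that in the 5XFAD nuclei, with an exact conditional binomial 95% interval that covers counting error only.

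Over all nuclei, nearly every member took a larger share of the RNA in the library labelled MR1 knockout. Trib3 had too few UMIs (39 and 10) to be compared, and of the other 33 members 31 had a ratio above 1 and 2, Atf6 and Chac1, below 1. Of these 33, 8 were at least 1.5-fold higher and 0 at least 1.5-fold lower, where 8.79% of all 18637 genes with at least 50 UMIs were that much higher and 3.2% that much lower. The 8 were the inducible HSP70 genes Hspa1a and Hspa1b, Dnajb1, Hspb1, Bag3, Hspa5, Sdf2l1 and Pdia6. The interval lay wholly above 1 for 25 members, against 42.8% of all genes, and wholly below 1 for 1 member, against 13.2%. The median log2 ratio was 0.30 for the members and 0.13 for all genes, of which 70.5% were higher. Scaling by edgeR's TMM factors moved the median of all genes to 0.0040 and that of the members to 0.18, with 25 of 33 members higher and 4 at least 1.5-fold higher. With no mitochondrial limit on nuclei, only 1 member was at least 1.5-fold higher and the median was 0.15.

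The direction turned with the scale. In UMIs per nucleus, which take no account of depth, 24 of the 33 members were lower in the library labelled MR1 knockout and 9 were higher, and their median log2 ratio was -0.21. All genes had a median of -0.39 on this scale, and 11.1% of them were higher. The 9 members higher on both scales were those at least 1.5-fold higher in CPM, together with Xbp1. The summed members made up 1922 and 2394 CPM, which corresponded to 8.99 and 7.83 UMIs per nucleus. Mean UMIs per nucleus were lower in the library labelled MR1 knockout in each of the 9 classes, such as 5479 and 3869 in CA1-like and 3893 and 2224 in dentate granule-like neurons. Thinning to 750 UMIs left out the nuclei with fewer UMIs, so it changed the set of nuclei as well as the depth. With the remaining nuclei thinned, 6 members were at least 1.5-fold higher over all nuclei and the median log2 CPM ratio was 0.26.

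**Figure D1:**
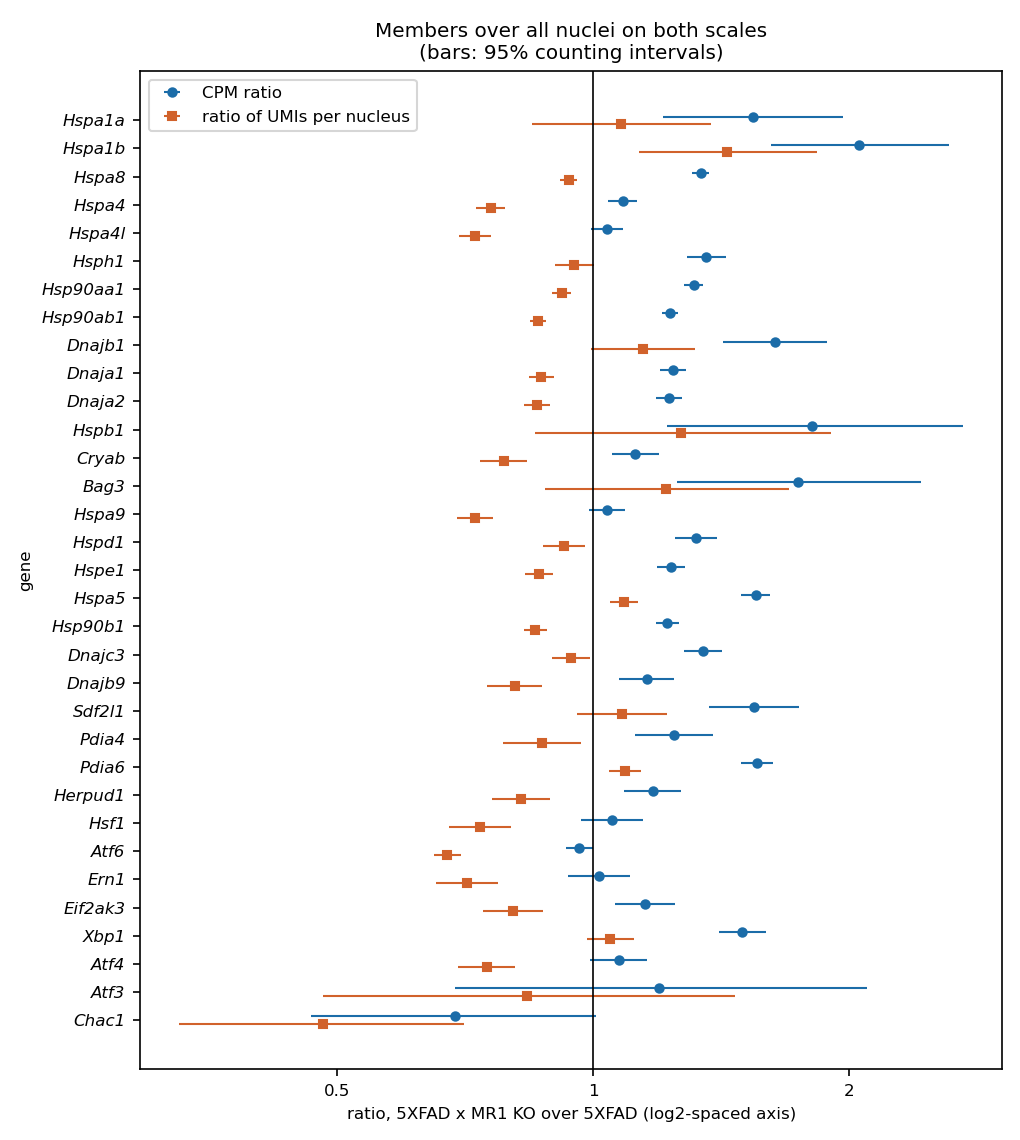
Ratio between the libraries (labelled MR1 knockout over 5XFAD) for the 33 members with at least 50 UMIs over all nuclei, on a log axis, in CPM (with exact 95% counting intervals) and in UMIs per nucleus. In CPM 31 members lie above 1, and in UMIs per nucleus 9 do.

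How much of each member belonged to a cell class was read against a cluster of RNA-poor nuclei. This unnamed cluster, chosen for this use after the data were seen, held 607 and 267 nuclei with a median of 682 and 662 UMIs. Its 10 leading genes by fold included the member Hsp90aa1, the mitochondrial mt-Nd6 and the glial genes Apod, Ptgds and Cldn11. Against 1922 and 2394 CPM over all nuclei, the members made up 8501 and 8099 CPM in this cluster. Cytoplasmic housekeeping RNAs made up 3785 and 4311 CPM over all nuclei and 18076 and 16648 CPM in this cluster. Hspa8 stood at 1.13 and 1.07 UMIs per nucleus there, and Hsp90ab1 at 1.29 and 1.38. In the 9 classes the range was 0.881 to 1.246 for Hspa8 and 0.869 to 1.42 for Hsp90ab1. These classes had median depths from 903 to 6165 UMIs. A level at or below that of the RNA-poor nuclei is not read here as RNA of the class, although no level in empty droplets was estimated and the class may still express the gene. Of 306 pairs of member and class, 79 lay above the RNA-poor level beyond counting error in both libraries, 35 in 1 library and 188 in neither, and 4 lay below it in both.

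The members above that level in the most classes were ER genes and ER sensors. This order depends on the level of each gene in the RNA-poor cluster as well as in the classes, so it is not read as a difference between compartments. Atf6 was above it in 8 classes, Ern1 in 7, and Dnajc3, Pdia6 and Eif2ak3 in 6 of 9, including in each case all 5 neuronal classes. Hspa4, Dnaja2, Hsp90b1 and Hsf1 were above it in those 5 classes alone. The cytosolic chaperones Hspa8, Hsp90aa1, Hsp90ab1, Dnajb1 and Dnaja1, the mitochondrial Hspd1 and Hspe1, and the ER genes Sdf2l1 and Pdia4 were above it in 0 classes. Cryab stood out in oligodendrocyte-like nuclei alone, and Bag3 in astrocyte-like nuclei alone.

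**Figure D2:**
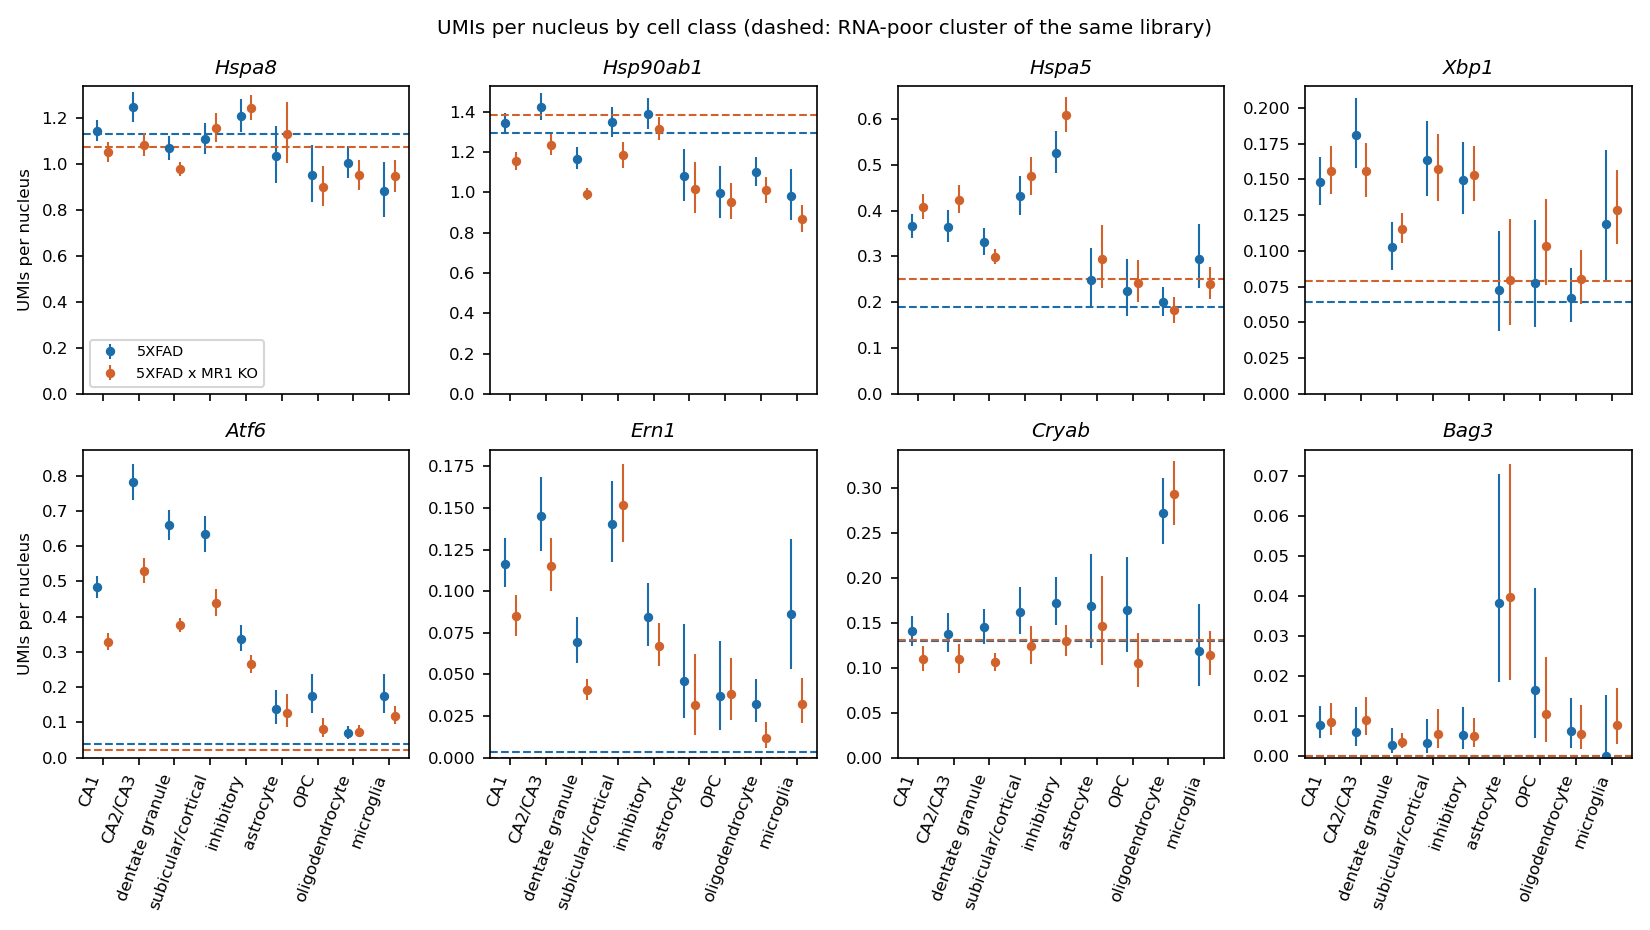
UMIs per nucleus of 8 members in each class and library, with exact Poisson 95% intervals and dashed lines at the level of the RNA-poor cluster in each library. Hspa8 and Hsp90ab1 lie near the dashed lines in all classes, while Atf6 and Ern1 lie above them in neurons.

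Among the HSP70 and HSP110 chaperones, all 6 had a ratio above 1 over all nuclei (median log2 value 0.43). Hspa8 (chromosome 9, 40800984 to 40810087 in mm10) encodes the constitutive HSC70, which folds new protein and uncoats clathrin vesicles. It made up 242 and 324 CPM, a ratio of 1.34 (1.31 to 1.37), and was higher in 9 of 9 classes, between 1.23 and 1.60, with the interval above 1 in each. In UMIs per nucleus it was higher in 4 classes and lower in 5. In dentate granule-like neurons it was at 274 and 440 CPM, but within the 3 clusters of that class, which the libraries hold in different shares, its ratio was 1.22, 1.23 and 1.28.

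The stress-inducible HSP70 genes were scarce. Hspa1b had 105 and 215 UMIs over all nuclei (1.86 and 3.83 CPM, ratio 2.05, 1.62 to 2.62), and Hspa1a had 114 and 175 (ratio 1.54, 1.21 to 1.97). These genes lie beside each other on chromosome 17 with near-identical sequence, so reads could be assigned to either. Per nucleus they were at 1.44 and 1.08 times the 5XFAD level. Hspa1b reached 50 UMIs in 2 classes. In CA2/CA3-like neurons it was at 1.95 and 4.49 CPM (17 and 41 UMIs, ratio 2.30, 1.28 to 4.32), but the nuclei of the female mice alone gave 0.805. In CA1-like neurons the ratio was 1.46 (0.849 to 2.53), which was within counting error.

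Hsph1, an HSP110 protein that exchanges the nucleotide of HSP70, was at 43.7 and 59.3 CPM (ratio 1.36, 1.29 to 1.43). It was higher in 8 of 9 classes and reached 1.89 (1.64 to 2.19) in dentate granule-like neurons, where its counts were 247 and 754. In OPC-like nuclei (oligodendrocyte precursors) it was at 1.502 (0.966 to 2.38), and in astrocyte-like nuclei at 0.795 (0.487 to 1.28). The relatives Hspa4 and Hspa4l had ratios of 1.08 and 1.04. In UMIs per nucleus, which take no account of depth, Hspa4l was highest in CA2/CA3-like neurons, at 0.496 and 0.412. Over both libraries it was lowest on this scale in oligodendrocyte-like nuclei, at 0.0847 and 0.0662. In microglia-like nuclei Hspa4l was lower, at 82.2 and 45.6 CPM (30 and 39 UMIs, ratio 0.554, 0.336 to 0.924), although it was not above the RNA-poor level there.

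HSP90 proteins hold kinases and receptors in a form ready for activation. Hsp90ab1, the constitutive form, was at 278 and 342 CPM (ratio 1.23, 1.21 to 1.26), and Hsp90aa1, the form that heat induces, at 177 and 233 CPM (1.31, 1.28 to 1.35). Hsp90aa1 was higher in 9 of 9 classes with the interval above 1 in each, and Hsp90ab1 in 9 with the interval above 1 in 8. Per nucleus, Hsp90ab1 was lower in all 9 classes and Hsp90aa1 in 8. Neither gene exceeded the RNA-poor level in any class, and Hsp90aa1 was itself a leading gene of the RNA-poor cluster.

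The cytosolic HSP40 cochaperones hand clients to HSP70. Dnajb1, which HSF1 raises with HSP70, was at 5.70 and 9.32 CPM (321 and 523 UMIs, ratio 1.63, 1.42 to 1.88) and was higher in each of the 5 classes with enough UMIs. Its interval was above 1 in dentate granule-like neurons alone, at 1.63 (1.11 to 2.44). Dnaja1 and Dnaja2 were at 1.24 and 1.23 over all nuclei. Dnaja1 was at 1.77 (1.29 to 2.44) in astrocyte-like nuclei, 121 and 215 CPM, and per nucleus it was also higher there, at 0.272 and 0.385. In UMIs per nucleus Dnaja2 ran from 0.803 and 0.685 in CA2/CA3-like neurons to 0.149 and 0.143 in oligodendrocyte-like nuclei. Mean UMIs of all genes per nucleus also differed between these classes, at 7319 and 5155 against 1480 and 1050. The range is therefore not read as a difference in the share of RNA. The Dnaja2 ratio was 1.61 (1.12 to 2.39) in microglia-like nuclei but 0.778 in the nuclei of male mice there.

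Small heat shock proteins keep unfolded clients soluble, and Bag3 directs clients of HSP70 to autophagy. Cryab (alpha-B crystallin) was the clearest glial gene of the list. It stood at 0.273 and 0.293 UMIs per nucleus in oligodendrocyte-like nuclei, against 0.1301 and 0.1311 in the RNA-poor cluster, and its ratio in this class was 1.51 (1.26 to 1.82), 184 and 279 CPM. Per nucleus it was at 1.07 times the 5XFAD level. Bag3 had 60 and 104 UMIs in all (ratio 1.74, 1.254 to 2.43) and was highest in astrocyte-like nuclei, at 0.0383 and 0.0397 UMIs per nucleus from 10 and 10 UMIs. Its RNA-poor level was 0 in both libraries. The Bag3 ratio was 1.19 (0.744 to 1.91) in nuclei of the female mice and 3.28 (1.58 to 7.20) in nuclei of males, with 12 and 24 UMIs in the latter. Hspb1 had 41 and 74 UMIs (1.81, 1.22 to 2.72) and reached 50 UMIs in 0 classes.

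Hspd1 and Hspe1 encode HSP60 and its lid HSP10, and Hspa9 encodes the mitochondrial HSP70 that pulls in imported protein. Hspd1 was at 37.6 and 49.7 CPM (ratio 1.32, 1.248 to 1.40) and Hspe1 at 84.9 and 105 CPM (1.23, 1.19 to 1.28). Hspa9 was at 57.1 and 59.2 CPM, a ratio of 1.04 (0.987 to 1.09) within counting error. Hspd1 reached 1.61 (1.36 to 1.91) in dentate granule-like neurons and 1.53 (1.32 to 1.76) in CA1-like neurons. Hspa9 was the only gene of this group above the RNA-poor level, in 4 neuronal classes, where its ratios ran from 0.883 to 1.18.

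Hspd1 and Hspe1 are read in opposite directions from 1 promoter on chromosome 1, and their annotated spans overlap. The promoter holds heat shock elements, which lie outside that overlap and are shown because the promoter serves both genes. Positions count back from the RefSeq start, which for both genes lies inside the annotated span. RefSeq promoters (250 bases before to 50 after the start, assembly GRCm38.p6, the coordinates of mm10) were matched for 27 of the 34 members. They were searched on both strands for GAA, TTC and GAA, or TTC, GAA and TTC, each separated by 2 bases of any kind, and capitals mark the overlapping matches in the 2 sequences below, which are the same bases read from each strand at chr1:55088051-55088084.
Hspe1 (plus strand, 89 to 72 bases before the start): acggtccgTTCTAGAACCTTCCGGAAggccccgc
Hspd1 (minus strand, 144 to 127 bases before the start): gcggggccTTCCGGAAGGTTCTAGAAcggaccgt
Besides this pair, Hsph1 had a match after its start, and 0.603% of all 32851 RefSeq promoters hold one. A match describes letters in this window and says nothing of HSF1 binding, and a promoter without one may hold elements of other spacing.

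The ER chaperones and folding enzymes were higher as a group, 8 of 8 over all nuclei (median log2 value 0.37), and all 8 intervals lay above 1. Hspa5 (chromosome 2, 34771970 to 34777547) encodes BiP, the HSP70 of the ER and the protein that holds the stress sensors inactive. It was at 77.3 and 120.0 CPM, from 4353 and 6735 UMIs (ratio 1.55, 1.49 to 1.61), and its level per nucleus was also higher, at 0.362 and 0.393. The ratio was above 1 in 9 of 9 classes and its interval above 1 in 8, microglia-like nuclei being the exception at 1.09 (0.826 to 1.45). Hspa5 was at least 1.5-fold higher in CA2/CA3-like neurons (1.65, 1.46 to 1.86), OPC-like nuclei (1.62, 1.17 to 2.28), CA1-like neurons (1.58, 1.43 to 1.74) and dentate granule-like neurons (1.58, 1.43 to 1.76). It exceeded the RNA-poor level (0.189 and 0.251 UMIs per nucleus) in 4 neuronal classes. On this scale, which takes no account of depth, it was highest in inhibitory-like neurons, at 0.527 and 0.609. In each of these 4 classes, CA1-like, CA2/CA3-like, inhibitory-like and subicular or cortical-like neurons, its UMIs per nucleus were also higher in the library labelled MR1 knockout, between 1.10 and 1.16 times.

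Pdia6, a disulfide isomerase that works with BiP and limits IRE1, had a similar ratio. It was at 59.1 and 92.0 CPM (1.56, 1.49 to 1.63) and above 1 in 9 of 9 classes. In subicular or cortical-like neurons it was at 43.2 and 75.4 CPM (269 and 423 UMIs, ratio 1.74, 1.49 to 2.04), in inhibitory-like neurons at 58.0 and 94.4 CPM (1.63, 1.41 to 1.88), and in dentate granule-like neurons at 64.3 and 103 CPM (1.60, 1.42 to 1.81). Per nucleus it was 1.33 and 1.29 times the 5XFAD level in the first 2 of these classes. The subicular or cortical-like value rested on the female mice, at 2.04 (1.68 to 2.49), while the male mice gave 0.863 (0.552 to 1.32).

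Sdf2l1 and Pdia4 were the scarcest of the ER group. Sdf2l1, which keeps BiP cycling, was at 7.73 and 11.9 CPM (435 and 670 UMIs, ratio 1.55, 1.37 to 1.75). Its ratio was 1.95 (1.42 to 2.72) in dentate granule-like neurons, 1.74 (0.955 to 3.37) in microglia-like nuclei, 1.56 (0.862 to 2.87) in oligodendrocyte-like nuclei and 1.55 (1.11 to 2.17) in CA1-like neurons. The intervals in microglia-like and oligodendrocyte-like nuclei include 1, and the ratio in CA1-like neurons was 0.757 when nuclei were thinned to 750 UMIs. Pdia4, a disulfide isomerase, was at 1.24 over all nuclei, 1.80 (1.31 to 2.50) in CA2/CA3-like neurons and 1.52 (1.04 to 2.26) in subicular or cortical-like neurons. The latter was at 0.611 in the male mice alone.

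Hsp90b1, Dnajc3, Dnajb9 and Herpud1 differed in where they stood. Hsp90b1 (GRP94, the HSP90 of the ER) was at 130 and 159 CPM (1.22, 1.18 to 1.26). In UMIs per nucleus it was highest in inhibitory-like neurons, at 0.959 and 0.900, with CA2/CA3-like neurons next at 0.679 and 0.538. This order takes no account of depth and is not an order in CPM. Mean UMIs were 5099 and 4036 in inhibitory-like and 7319 and 5155 in CA2/CA3-like neurons, against 1496 and 1113 in microglia-like nuclei. The Hsp90b1 ratio was 1.52 (1.40 to 1.66) in dentate granule-like neurons, and 1.42, 1.26 and 1.44 in the 3 clusters of that class. In oligodendrocyte-like nuclei it was 0.983 (0.817 to 1.18). Dnajc3 (P58IPK, a BiP cochaperone) was at 1.35 (1.28 to 1.42), with 1.55 (0.985 to 2.49) in OPC-like nuclei and 1.52 (1.27 to 1.83) in inhibitory-like neurons. Dnajb9 (ERdj4), which returns BiP to IRE1, was at 1.16 (1.07 to 1.246) and past 1.5-fold in 0 classes. Herpud1, a part of the machinery that removes misfolded ER protein, was at 1.18 (1.09 to 1.27) over all nuclei but went both ways by class. It was at 1.66 (1.04 to 2.67) in oligodendrocyte-like nuclei and 1.59 (1.251 to 2.04) in dentate granule-like neurons. Within the 3 dentate granule-like clusters it was at 1.35, 1.24 and 0.810, each with an interval that includes 1. In inhibitory-like neurons it was at 0.780 (0.639 to 0.952), and its UMIs per nucleus were highest there (0.206 and 0.127).

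The promoters of 4 ER members hold the full ER stress response element (CCAAT, then 9 bases of any kind, then CCACG), through which ATF6 and NF-Y act. Among all RefSeq promoters 0.119% do. The matches are shown because Hspa5, Pdia6, Hsp90b1 and Dnajc3 were all higher over all nuclei, and capitals mark the element, searched on both strands. Positions count back from the RefSeq start, which for Hspa5 lies inside the longer gene span given above.
Hspa5 (chr2:34772017-34772051, plus strand, 65 to 47 bases before the start): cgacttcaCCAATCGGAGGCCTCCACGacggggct
Pdia6 (chr12:17266483-17266517, plus strand, 98 to 80 bases before the start): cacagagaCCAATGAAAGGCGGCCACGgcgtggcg
Dnajc3 (chr14:118937819-118937853, plus strand, 105 to 87 bases before the start): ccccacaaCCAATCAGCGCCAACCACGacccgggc
Hsp90b1, first copy (chr10:86705630-86705664, minus strand, 212 to 194 bases before the start): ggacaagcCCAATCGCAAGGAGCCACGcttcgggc
Hsp90b1, reversed copy (chr10:86705525-86705559, minus strand, 107 to 89 bases before the start): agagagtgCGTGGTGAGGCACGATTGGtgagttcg
The ratios of these 4 genes were 1.55, 1.56, 1.35 and 1.22 in the order printed.

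Sensors and transcription factors had a median log2 ratio of 0.10, with 6 of 7 higher, and of -0.02 with 3 of 7 higher under TMM scaling. Xbp1, the transcription factor whose RNA IRE1 splices, had the highest ratio of the group. Xbp1 (chromosome 11, 5520659 to 5525893) was at 28.6 and 42.9 CPM, from 1612 and 2405 UMIs (ratio 1.497, 1.40 to 1.60), and at 0.134 and 0.140 UMIs per nucleus. It was higher in all 8 classes with enough UMIs and its interval was above 1 in 7. The ratio was 1.9998 (1.16 to 3.60) in OPC-like nuclei, 1.97 (1.64 to 2.38) in dentate granule-like neurons and 1.68 (1.17 to 2.44) in oligodendrocyte-like nuclei, though in these 3 classes the level did not exceed the RNA-poor level. In CA1-like neurons, where it did, the ratio was 1.49 (1.28 to 1.74). Counts from the 3′ end do not tell spliced from unspliced Xbp1.

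The 3 ER sensors differed from Xbp1. Atf6 (chromosome 1, 170704674 to 170867771, 163 kb) was lower in CPM, at 103 and 99.6 (0.963, 0.928 to 0.999), and in 7 of 9 classes. In UMIs per nucleus it had 0.782 and 0.530 in CA2/CA3-like neurons against 0.0697 and 0.0738 in oligodendrocyte-like nuclei, a 9.14-fold range over both libraries. This scale takes no account of depth, and mean UMIs per nucleus were 7319 and 5155 against 1480 and 1050 in these classes. The range is therefore not read as a difference of that size in the share of RNA. Per nucleus Atf6 was lower in 8 classes. Oligodendrocyte-like nuclei were the exception, with a CPM ratio of 1.49 (1.03 to 2.16). Ern1 was at 19.7 and 20.0 CPM (1.02, 0.934 to 1.10) and Eif2ak3 at 19.7 and 22.7 CPM (1.15, 1.06 to 1.248). Both were nearly absent from the RNA-poor cluster, with 0.00329 and 0 UMIs per nucleus for Ern1, and neuronal classes held 0.0406 to 0.152. In subicular or cortical-like neurons Ern1 was higher, at 21.4 and 30.3 CPM (1.42, 1.12 to 1.79). Over all nuclei the median log2 ratio of all genes was 0.19 for spans under 10 kb, 0.13 for 10 to 100 kb and 0.0019 for 100 kb or more, and the members in these ranges had 0.42 (15 genes), 0.30 (17 genes) and -0.05 (Atf6 alone). The part of length in the members' ratios was not tested.

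Hsf1, Atf4 and Atf3 gave small or sparse values. Hsf1, the master regulator of the cytosolic response, was at 19.2 and 20.2 CPM (1.05, 0.967 to 1.14), and between 0.923 and 1.18 in 5 classes. Atf4, the effector of the integrated stress response, was at 22.2 and 23.8 CPM (1.07, 0.991 to 1.16). It was higher in dentate granule-like neurons as a class (1.33, 1.05 to 1.68), but at 0.727, 0.979 and 1.40 in its 3 clusters, each with an interval that includes 1. It was lower in microglia-like nuclei (24 and 28 UMIs, ratio 0.498, 0.278 to 0.897). Atf4 is controlled mainly at translation, which RNA counts do not show. Atf3 had 26 and 31 UMIs in all, of which 3 and 11 lay in microglia-like nuclei.

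The 2 targets of the integrated stress response in the list were scarce. Chac1, which degrades glutathione, had 70 and 48 UMIs (1.24 and 0.855 CPM, ratio 0.688, 0.466 to 1.01), and was highest in inhibitory-like neurons, with 16 and 10 UMIs. In the male mice it had 24 and 3 UMIs and in the female mice 30 and 34. Trib3, which feeds back on ATF4, had 39 and 10 UMIs, and 0.0139 and 0 UMIs per nucleus in medium spiny-like neurons, a class that was mostly in the 5XFAD library. Atf3, Chac1 and Herpud1 hold the C/EBP-ATF response element TGATGNAA (here on the reverse strand) before the start, and Trib3 after it, as do 3.97% of all RefSeq promoters, searched on both strands. The stretches are shown because ATF4 acts on this element, and capitals mark it.
Atf3 (chr1:191183428-191183451, minus strand, 110 to 103 bases before the start): tctcgcacTTGCATCAccaagtcc
Chac1 (chr2:119351041-119351064, plus strand, 193 to 186 bases before the start): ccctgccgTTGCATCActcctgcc
Herpud1 (chr8:94386309-94386332, plus strand, 112 to 105 bases before the start): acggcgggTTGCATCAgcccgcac
The cyclic AMP response element TGACGTCA, searched in the same way, was found in 0 of the 27 members' promoters and in 1.79% of all.

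By class, the members' CPM was higher on balance in all 9. Dentate granule-like neurons had the most members past 1.5-fold, 12 of 27 higher (background 12.7% of genes) and 0 lower (4.47%), and the median log2 ratio was 0.49 against 0.14 for all genes. The 12 were Hspa8, Hsph1, Hsp90aa1, Dnajb1, Dnaja1, Hspd1, Hspa5, Hsp90b1, Sdf2l1, Pdia6, Herpud1 and Xbp1. Cytoplasmic housekeeping RNAs were also higher in this class, 14 of 14 and 4 of them at least 1.5-fold. Their median was 0.42, so a rise of this size was not particular to the members. This class was built from different clusters in the libraries. The cluster of 1120 and 697 nuclei held most of the 5XFAD class, and those of 278 and 2142 and of 85 and 1351 held most of the other. At least 1.5-fold higher within these clusters alone were 3 of 27, 5 of 25 and 6 of 26 members. The share of all genes past that fold within each cluster is not given here, so these counts have no background beside them. Within each cluster the members' median was 0.32, 0.29 and 0.32, between the class value and that of all genes in the cluster (0.07 to 0.09). The interval lay above 1 for 21 members (30% of genes, 3858 of 12855) and below 1 for 0 (11.6%). Per nucleus 3 of the 27 members were higher in this class, Hsph1, Sdf2l1 and Xbp1. Of the 12, Hsp90b1 and Pdia6 were above the RNA-poor level.

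In the other neuronal classes fewer members passed 1.5-fold. CA1-like neurons had 3 of 28 higher (4.48%) and 0 lower (1.81%), and the 3 were Hspd1, Hspa5 and Sdf2l1. CA2/CA3-like neurons had 4 of 28 higher (4.9%) and 0 lower (1.71%), namely Hspa1b, Dnajb1, Hspa5 and Pdia4. Inhibitory-like neurons had 2 of 27, Dnajc3 and Pdia6 (5.95%), and 0 lower (1.73%). Subicular or cortical-like neurons had 3 of 27, Dnajb1, Pdia4 and Pdia6 (9.92%), and 0 lower (3.56%), and the 3 clusters of this class held 439 and 195, 343 and 277, and 167 and 649 nuclei. Intervals above 1 were found for 16 members in CA1-like neurons (21.3% of genes), 16 in CA2/CA3-like (19.6%), 14 in inhibitory-like (16.9%) and 14 in subicular or cortical-like neurons (22.6%). Intervals below 1 were found for 0, 0, 1 (Herpud1) and 0 members, where all genes had 6.92%, 6.72%, 6.96% and 9.85%. The median log2 ratios of these 4 classes were 0.25, 0.28, 0.24 and 0.22, with 0.09, 0.09, 0.09 and 0.11 for all genes. Cytoplasmic housekeeping RNAs had medians of 0.18, 0.08, 0.0027 and 0.06. Restricted to the members above the RNA-poor level (14, 15, 16 and 15 genes), the medians were 0.21, 0.24, 0.22 and 0.19.

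Glial classes rested on smaller counts and on members that mostly did not exceed the RNA-poor level. OPC-like nuclei had 6 of 18 members higher, Hsph1, Dnaja1, Dnaja2, Hspa5, Dnajc3 and Xbp1 (9.01%), and 0 lower (3.75%). Oligodendrocyte-like nuclei had 4 of 24 higher, Cryab, Sdf2l1, Herpud1 and Xbp1 (7.74%), and 0 lower (3.42%). Astrocyte-like nuclei had 2 of 18 higher, Dnaja1 and Hspa9 (8.36%), and 0 lower (9.99%), where the 8.36% and the 2 of 18 are close. Microglia-like nuclei had 2 of 22 higher, Dnaja2 and Sdf2l1 (8.91%), and 2 lower, Hspa4l and Atf4 (5.79%), also near the background. Intervals above 1 numbered 7 in OPC-like (8.86% of genes), 13 in oligodendrocyte-like (11.6%), 4 in astrocyte-like (8.97%) and 5 in microglia-like nuclei (6.86%). Intervals below 1 numbered 0 (5.87%), 0 (5.62%), 0 (9.31%) and 2 (6.96%). The members' median log2 ratios in these 4 classes were 0.42, 0.33, 0.24 and 0.26, with 0.05, 0.07, 0.0044 and -0.002 for all genes. Cytoplasmic housekeeping RNAs had medians of 0.42, 0.30, 0.20 and 0.10. With a mitochondrial limit of 1% the members' medians in these classes were 1.54, 1.52, 1.59 and 2.21. In these 4 classes the members above the RNA-poor level and with enough UMIs numbered 2, 1, 2 and 1, and their medians were -0.15, 0.60, 0.29 and -0.16.

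**Figure D3:**
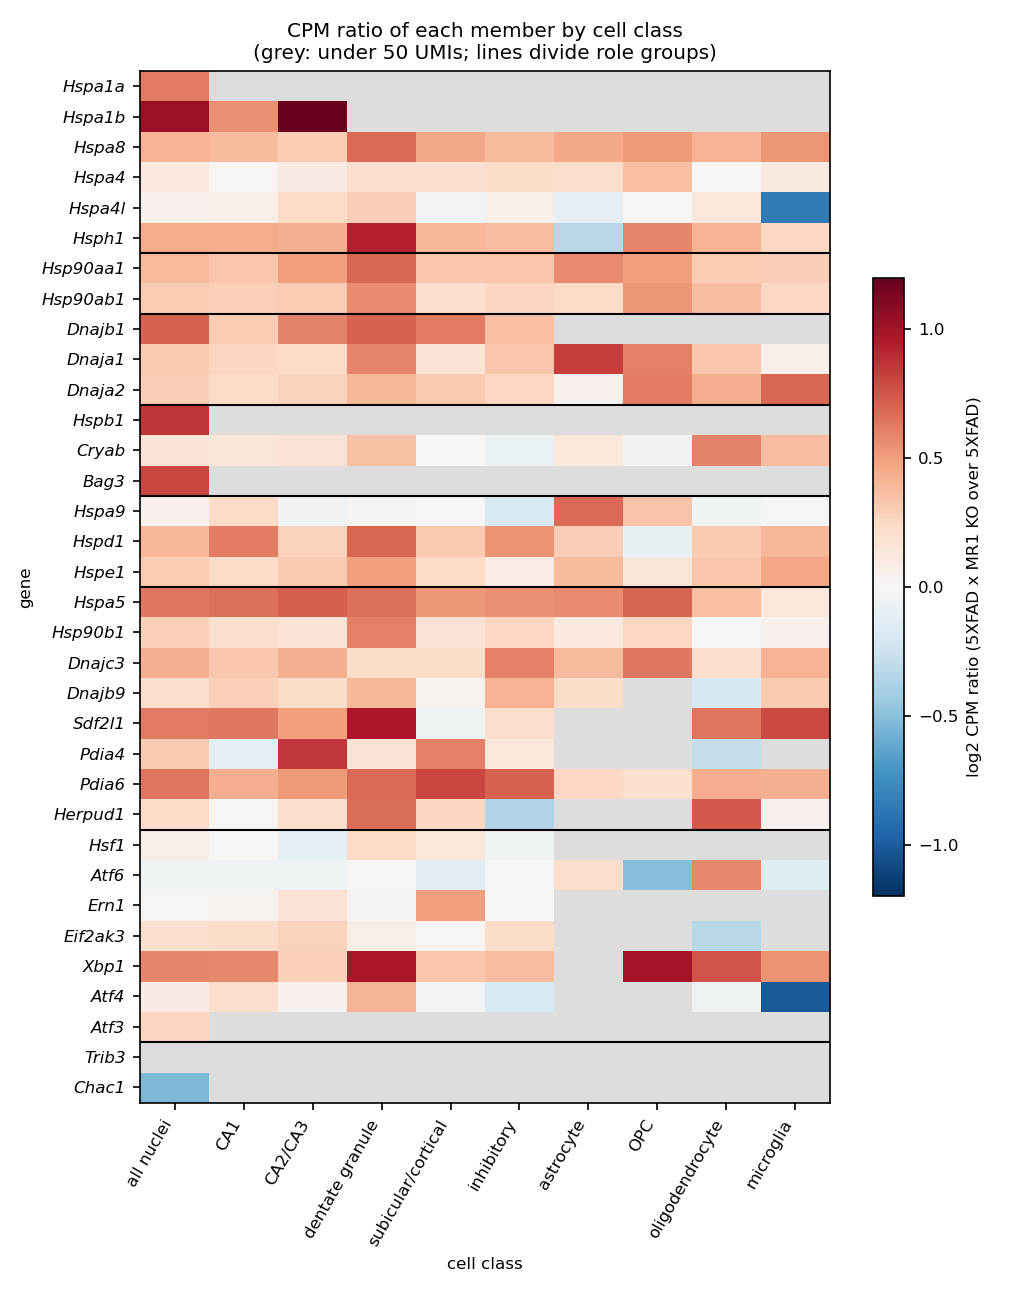
Log2 CPM ratio (library labelled MR1 knockout over 5XFAD) of each member in all nuclei and in the 9 classes, where a member had at least 50 UMIs. Values above 0 prevail in every column, the dentate granule-like column has the most members past 1.5-fold (12), and the members past 1.5-fold lower are Hspa4l and Atf4 in microglia-like nuclei.

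The mice of each library were told apart by sex-linked RNA, which gave 5289 and 8949 nuclei for the female mice and 3448 and 3069 for the male mice. Both mice of a library shared a capture, so these are not independent replicates. Among members with at least 50 UMIs, 28 of 31 were higher in the female mice (median log2 ratio 0.35, all genes 0.16). In males 28 of 29 were (0.27, all genes 0.07). Over all nuclei 70.5% of all genes were higher. The share within each sex is not given here, so these counts have no background of their own beside them. Hspa5 was at 1.70 (1.61 to 1.80) among females and 1.37 (1.27 to 1.48) among males, Pdia6 at 1.62 and 1.54, and Xbp1 at 1.63 (1.49 to 1.79) and 1.28 (1.12 to 1.45). Atf6 was at 1.02 (0.970 to 1.08) among females and 0.886 (0.825 to 0.952) among males. The mice also differed in their mix of classes, such as 135 and 792 dentate granule-like nuclei from males against 1200 and 2129 from females.

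**Figure D4:**
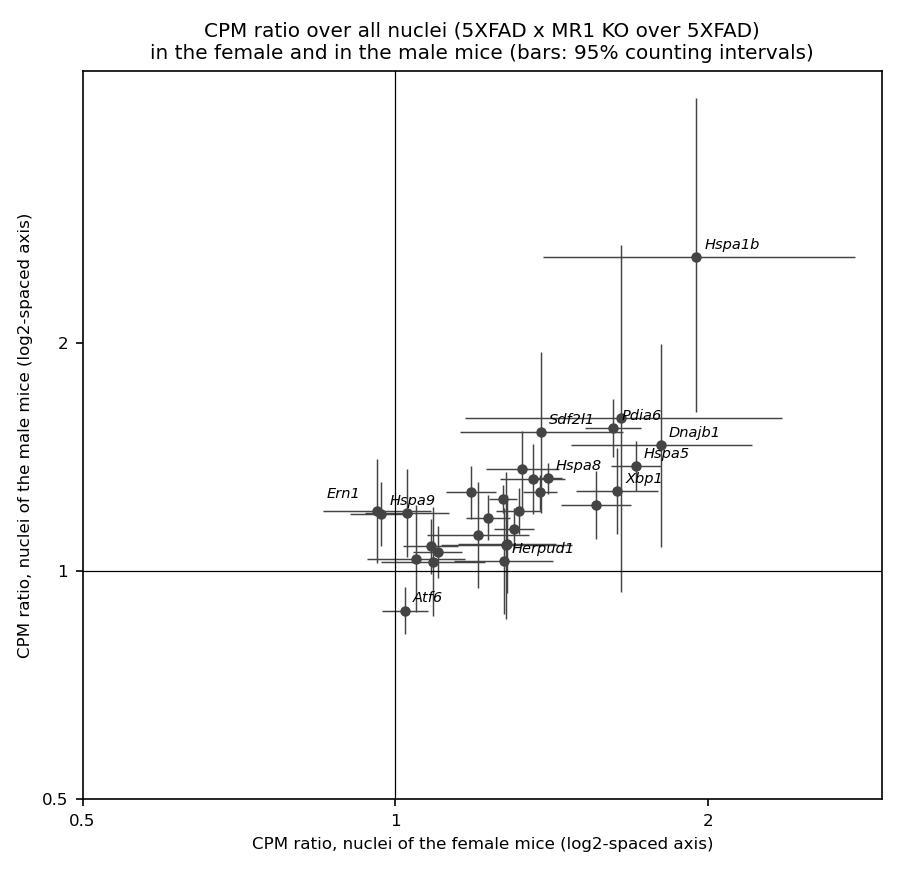
CPM ratio (library labelled MR1 knockout over 5XFAD) in the female mice against that in the male mice, over all nuclei, for 29 members with at least 50 UMIs in each, on log axes with exact 95% counting intervals. Of these, 26 lie above 1 in both, Atf6 in the female mice alone, and Ern1 and Hspa9 in the male mice alone. The share of all genes above 1 in both is not given here.

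Other genes of the same pathways were mostly higher in CPM and mostly lower in UMIs per nucleus, as were all genes. Of all genes 70.5% were higher in CPM, with a median log2 ratio of 0.13, and 11.1% were higher in UMIs per nucleus. Of 35 other cytosolic chaperones and cochaperones with enough UMIs, 34 were higher, 1 of them at least 1.5-fold (Hspa2, 1.54, 1.36 to 1.74, against 8.79% of all genes), and their median log2 value was 0.26. All 8 subunits of the TRiC/CCT chaperonin, which folds actin and tubulin, were higher (median 0.29), with Cct2 at 1.30 and Cct8 at 1.30. Of 42 other ER folding and degradation genes 39 were higher (median 0.25), with Derl3 at 2.36 (31 and 73 UMIs), Pdia3 at 1.42 and Canx at 1.17, while Pdia5 was at 0.833 (0.734 to 0.947). Of 9 other mitochondrial chaperones and proteases 8 were higher (4 of 9 under TMM scaling), with Grpel1 at 1.39 and Htra2 at 0.924. Their median was 0.11, below that of all genes. Cytoplasmic housekeeping RNAs, a measure of RNA from outside the nucleus, were also higher for 12 of 14 (median 0.19, Tuba1a 1.44, Ubb 1.252), and 5 of 8 nuclear long noncoding RNAs were (0.08, Malat1 0.943). The part of cytoplasmic RNA in the members' ratios was not tested. Immediate-early genes, which dissection can induce together with heat shock genes, were higher for 5 of 14 over all nuclei (median -0.26). Jun was at 2.12 (1.96 to 2.30), Egr1 at 0.496 and Npas4 at 0.479, and the summed list at 171 and 169 CPM. By class, 8 of 11 were higher in CA1-, 2 of 10 in CA2/CA3-, 5 of 8 in dentate granule-, 2 of 7 in inhibitory- and 3 of 11 in subicular or cortical-like neurons. In astrocyte-, microglia-, oligodendrocyte- and OPC-like nuclei 1 of 1, 2 of 3, 2 of 3 and 2 of 2 were. The part of dissection in the members' ratios was not tested.

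The other genes of the integrated stress response differed in direction between classes. Over all nuclei 17 of 27 were higher (median log2 value 0.07, and 10 of 27 higher under TMM scaling), and 4 were at least 1.5-fold higher, among them Ddit4 (1.63) and Cebpb (1.59). Of all genes 70.5% were higher and 8.79% that much higher. In inhibitory-like neurons 16 of 23 were lower, 10 of them at least 1.5-fold, where 1.73% of all genes of this class were that much lower, and 1 was at least 1.5-fold higher (Ddit4). This class was singled out after its values were seen. The 10 were the serine and one-carbon enzymes Phgdh, Psat1 and Mthfd2, the amino acid transporters Slc7a5 and Slc7a11, the tRNA synthetases Cars and Aars, and the stress genes Atf5, Nupr1 and Sesn2, most of them known ATF4 targets. Mthfd2 was at 34.6 and 13.5 CPM (169 and 90 UMIs, ratio 0.390, 0.298 to 0.506), Cars at 30.1 and 15.9 CPM (0.527, 0.407 to 0.682), Aars at 50.6 and 32.7 CPM (0.646, 0.536 to 0.778) and Nupr1 at 7.79 and 2.10 CPM (0.269, 0.135 to 0.509). Asns, Slc3a2 and Nars were also lower there, with the members Herpud1 (0.780), Atf4 (0.880, 0.698 to 1.11), Chac1 (0.457, 0.185 to 1.07) and Trib3 (4 and 0 UMIs).

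The summed list gave 636 and 502 CPM in inhibitory-like neurons, a ratio of 0.789 (0.751 to 0.828), against 0.970 (0.930 to 1.01) in CA1-like and 1.04 (0.991 to 1.09) in CA2/CA3-like neurons and 1.22 (1.17 to 1.29) in dentate granule-like neurons, where 17 of 19 genes were higher. The difference between classes was not tested. In inhibitory-like neurons the list was lower among females (0.787, 0.738 to 0.839) and among males (0.802, 0.722 to 0.891), and in each of the 3 clusters of the class (0.546, 0.880 and 0.765). Of the 10 genes, 10 were below 1 among females and 9 among males. The 10 were picked by their ratio in these same nuclei, so their counts in subsets of the nuclei are not independent support. In the males of the library labelled MR1 knockout 8 of the 10 rested on 2 to 12 UMIs. At least 1.5-fold lower with 50 UMIs were 4 genes of the list among females and 2 among males. When each nucleus with at least 750 UMIs was thinned to 750, the list ratio was 0.897 (0.798 to 1.01). The 10 genes were then all below 1, and 1 of them still had 50 UMIs. In the 5XFAD library 8 of the 10 stood above the RNA-poor level in this class, all but Psat1 and Phgdh, and in the library labelled MR1 knockout 4 did, Mthfd2, Slc7a11, Cars and Aars. In the same nuclei the ER members Hspa5, Pdia6 and Dnajc3 were higher (1.46, 1.63 and 1.52).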

How the data were processed

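Each library is a 10x 3′ single-nucleus library from about 20 mg of flash-frozen hippocampus, and the authors deposited UMI counts per gene and barcode. The submitters' processing notes name Cell Ranger 7.0.0, Seurat and mm10, and the handling of introns and strand is not given in the sources used here. Barcodes with at least 500 genes and under 5% mitochondrial UMIs were kept, and doublets (Scrublet through scanpy 1.11.5, 20.2% and 21.0%) and clusters in which 15% or more of the nuclei mixed Xist with Y-linked UMIs were left out. Nuclei of both libraries were clustered together without the members and listed genes (2500 variable genes, 40 components, 20 neighbours, Leiden resolution 1.5, 32 clusters). A cluster was named when at least 3 fixed markers of a class were in its top 50 genes and the next class had at most 50% as many. Unnamed clusters held 19.9% and 19.1% of nuclei. Raw counts were summed per library and class, and CPM ratios were given exact intervals (scipy 1.17.1) and compared where both libraries together had at least 50 UMIs. No adjusted or raw p-value was computed, since each group is 1 library. TMM factors came from edgeR 4.0.16. The calculation was tested on simulated data. Named members were those at least 1.5-fold changed in a class or among the 4 with the most UMIs of their role, with every member accounted for, and other genes of the lists were named by UMIs and ratio. The members and lists were chosen with earlier results of these data known. Alternatives were other mitochondrial and gene limits, doublets kept, 1 sex, thinning to 750 UMIs (nuclei with fewer left out), other scalings, minimums and folds.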

Additional observations from a re-analysis of the deposited data

Results flagged for a closer look

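Some members were higher in 1 class and lower in another, with counting intervals on opposite sides of 1; the differences between classes were not tested, since each group is 1 library. Hspa4l had a CPM ratio of 1.18 in CA2/CA3-like neurons and 1.22 in dentate granule-like neurons, against 0.554 in microglia-like nuclei, and within the 3 dentate granule-like clusters it was at 1.18, 1.01 and 1.61. Herpud1 was at 1.59 in dentate granule-like neurons and 1.66 in oligodendrocyte-like nuclei, against 0.780 in inhibitory-like neurons, but within the dentate granule-like clusters it was at 1.35, 1.24 and 0.810. Atf4 was at 1.33 in dentate granule-like neurons and 0.498 in microglia-like nuclei, but at 0.727, 0.979 and 1.40 within the dentate granule-like clusters. Each of these within-cluster intervals includes 1. In subicular or cortical-like neurons Atf6 was at 1.17 in the female mice (293 and 403 UMIs) and 0.509 in the male mice (229 and 44 UMIs), which was likewise not tested.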

How the results depend on the processing

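No paired analysis was possible because each group is 1 library. Where a value below differs from the main one, the cause was not tested. By the whole interval over all nuclei, 42.8% of all genes were higher and 13.2% lower. For the other changed settings no share of all genes is given here. The counts therefore show how the calls move with the processing and are not read as a result about the members. Members at least 1.5-fold higher over all nuclei (8) numbered 1 with no mitochondrial limit, 4 in the male mice, 4 with TMM factors, 0 in UMIs per nucleus, 14 at a smaller fold, 1 at 2-fold and 25 by the whole interval. Those lower (0) numbered 1 with no mitochondrial limit, with doublets kept, with TMM factors, in UMIs per nucleus, at 20 UMIs, with no minimum, at a smaller fold and by the whole interval. Pairs of member and class that were higher (38) numbered 25 at 1000 genes, 22 in the male mice, 21 when thinned, 16 with TMM factors, 1 in UMIs per nucleus, 67 with no minimum, 97 at a smaller fold, 1 at 2-fold and 110 by the whole interval. Lower pairs (2) numbered 0 at 1% mitochondrial UMIs and in the female mice, 4 when thinned, 19 in UMIs per nucleus, 6 at 20 UMIs, 13 with no minimum, 6 at a smaller fold and 1 at 2-fold.

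The median log2 ratio over all nuclei was 0.15 with no mitochondrial limit, 0.46 at 1% and 0.18 with TMM factors. At 1% it was 1.59 in astrocyte-, 2.21 in microglia-, 1.52 in oligodendrocyte- and 1.54 in OPC-like nuclei. In both libraries the median mitochondrial share of these classes was above 1%, so these medians are not read as a difference. At 1000 genes the members' median was -0.17 in microglia-like nuclei. In UMIs per nucleus it was -0.21 over all nuclei, -0.25 in CA1-, -0.23 in CA2/CA3-, -0.32 in dentate granule-, -0.093 in inhibitory- and -0.17 in subicular or cortical-like neurons, and -0.081, -0.16, -0.17 and -0.17 in astrocyte-, microglia-, oligodendrocyte- and OPC-like nuclei. For members above the RNA-poor level, a choice made after the data were seen, it was 0.22 in dentate granule-like neurons, -0.16 in microglia-like and -0.15 in OPC-like nuclei. The 10 lower genes of the integrated stress response in inhibitory-like neurons numbered 3 at 1% mitochondrial UMIs, 4 among females and 2 among males, 0 when thinned and 3 at 2-fold.

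In UMIs per nucleus the dentate granule-like ratios were 0.916 for Hspa8, 0.920 for Hsp90aa1, 0.931 for Dnajb1, 0.859 for Dnaja1, 0.919 for Hspd1, 0.905 for Hspa5, 0.869 for Hsp90b1, 0.916 for Pdia6 and 0.909 for Herpud1, and Hsph1 was at 0.997 in OPC-like nuclei. At 1% mitochondrial UMIs Dnaja2 and Dnajc3 were at 0.868 in OPC-like, Hspa9 at 0.872 in astrocyte-like and Sdf2l1 at 0.772 in oligodendrocyte-like nuclei. Thinned, Hspa9 was at 0.900 in astrocyte-like nuclei and Sdf2l1 at 0.757 in CA1-like neurons. In the female mice Hspa1b was at 0.805 in CA2/CA3-like neurons. In the male mice Dnaja2 was at 0.778 in microglia-like nuclei, Sdf2l1 at 0.492 in oligodendrocyte-like nuclei, Herpud1 at 0.761 in dentate granule-like neurons, and Pdia4 and Pdia6 at 0.611 and 0.863 in subicular or cortical-like neurons. At 1000 genes Sdf2l1 was at 0.393 in oligodendrocyte-like nuclei.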
